A study of Rattus norvegicus with 12 samples.

Results

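The diet comparison without estradiol set the uteri of ovariectomized rats fed soy protein isolate (SPI) against the uteri of ovariectomized rats fed casein (CAS), in 3 SPI and 3 CAS RNA-sequencing libraries, 6 of the 12 libraries of the series. Its genes were all those with a level of at least 1 FPKM (the fragments of a transcript per kilobase of its length, relative to the mapped fragments of the library, summed over the transcripts of a gene) in at least 3 of these 6 libraries, which kept 9705 of the 16493 gene symbols in the files. Every rat was a Sprague-Dawley female that ate a purified diet with corn oil as the fat from postnatal day 30, lost its ovaries on postnatal day 50, carried a minipump under the skin and was sampled on postnatal day 65. These ages are from the methods of the paper. Other parts of the paper give a shorter time on the diet and a slightly younger age at collection. In the SPI and CAS groups the pump held the polyethylene glycol vehicle alone, and the protein of the diet was the only labelled difference between them. The other 6 libraries, SPI-E2 and CAS-E2, came from rats on the same diets whose pump gave 5 μg/kg/day of estradiol (E2). Each library was made from the pooled RNA of 2 uteri, so that a group of 3 libraries stands for 6 uteri, and the libraries of a group were sequenced together, so that sequencing lane and diet cannot be told apart.

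Soy protein isolate carries isoflavones such as genistein and daidzein, plant compounds that bind the estrogen receptors and prefer the beta receptor (Esr2) over the alpha receptor (Esr1). Casein, the main milk protein, carries no isoflavones and served as the reference protein. In a uterus without ovarian hormones the luminal and glandular epithelium, the stroma and the muscle wall shrink, and estrogen acting through Esr1 restores epithelial growth and secretion, in part through stromal Igf1. A whole uterus mixes these layers with vessels, blood, immune cells and any fat that clings to it, so that fewer cells of a type and less RNA per cell cannot be told apart in these data.

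Sequence is shown for 4 of the genes at the ends of the comparison, Ugt2b10 and Spint1 with lower values in all SPI libraries, Igf1 and the beta globin Hbb with higher values in all SPI libraries. Each line gives, 5′ to 3′, the RefSeq promoter window in build GRCr8, 250 bases before to 50 after the annotated start. Capitals mark, on either strand, the letters TATAAA, which the basal transcription machinery binds, the promoter element CCAAT, the letters GGGCGG bound by Sp factors, and GGTCA, the core of elements bound by estrogen and other nuclear receptors. The windows lie at chr14:21462591-21462890 on the plus strand for Ugt2b10, chr3:126685031-126685330 on the plus strand for Spint1, chr7:24172282-24172581 on the plus strand for Igf1 and chr1:167663672-167663971 on the minus strand for Hbb.
Ugt2b10: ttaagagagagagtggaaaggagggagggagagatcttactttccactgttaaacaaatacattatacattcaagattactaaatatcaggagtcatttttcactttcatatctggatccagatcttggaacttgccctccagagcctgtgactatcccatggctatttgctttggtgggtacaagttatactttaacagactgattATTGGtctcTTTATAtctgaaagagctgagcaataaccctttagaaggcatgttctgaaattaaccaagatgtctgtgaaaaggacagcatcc
Spint1: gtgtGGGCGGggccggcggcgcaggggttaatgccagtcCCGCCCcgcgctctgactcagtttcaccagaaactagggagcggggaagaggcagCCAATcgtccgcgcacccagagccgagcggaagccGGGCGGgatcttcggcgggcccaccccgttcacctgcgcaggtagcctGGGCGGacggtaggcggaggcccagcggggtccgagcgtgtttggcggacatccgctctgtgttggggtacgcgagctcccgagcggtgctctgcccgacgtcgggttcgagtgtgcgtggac
Igf1: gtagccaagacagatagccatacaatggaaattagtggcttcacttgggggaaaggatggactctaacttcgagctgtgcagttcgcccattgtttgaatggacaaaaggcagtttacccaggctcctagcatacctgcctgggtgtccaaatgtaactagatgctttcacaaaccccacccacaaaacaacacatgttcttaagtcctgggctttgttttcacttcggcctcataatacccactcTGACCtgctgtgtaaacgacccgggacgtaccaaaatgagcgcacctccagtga
Hbb: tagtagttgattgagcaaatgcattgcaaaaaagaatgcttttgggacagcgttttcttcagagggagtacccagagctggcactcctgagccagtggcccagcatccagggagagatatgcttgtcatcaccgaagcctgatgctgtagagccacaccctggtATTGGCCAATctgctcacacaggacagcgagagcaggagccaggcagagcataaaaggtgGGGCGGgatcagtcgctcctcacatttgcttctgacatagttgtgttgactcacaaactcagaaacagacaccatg

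Ugt2b10 held TATAAA on the reverse strand, 34 bases before the start, and CCAAT on the reverse strand, 43 bases before it. Among all 33469 promoter windows in the reference, 14.2% held TATAAA and 37.5% held CCAAT. Spint1 held GGGCGG at 4 places and CCAAT at 156 bases before its start, and 33.1% of all windows held GGGCGG. Igf1 held GGTCA on the reverse strand, 4 bases before its start, as 40.5% of windows did somewhere. Hbb held CCAAT on both strands, 86 and 81 bases before its start, and GGGCGG 26 bases before it. The forkhead letters TGTTTAC, in 3.78% of all windows, were in none of the 4.

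The level of most genes was lower in the SPI libraries. The median difference on the log2(FPKM + 1) scale, SPI minus CAS, was -0.17 over the 9705 genes, and 77.8% of them lay below 0. All 3 SPI libraries lay below every CAS library for 3127 genes, 32.2% of those tested, and above every CAS library for 181 genes, 1.87%. The paper reports a lower alignment rate and more over-represented sequences for some CAS libraries, though not all, than for any SPI library. Whether this difference in read quality had a part in the shift was not tested. The depth that the coverage and FPKM values imply ran from 6353210 to 9862180 mapped reads in CAS and from 7594303 to 9672864 in SPI. The fragments on annotated genes were estimated from each FPKM value and its upper confidence limit, in the absence of read counts. They made up an estimated 23.3, 21.8 and 21.3% of those reads in CAS and 20.8, 19.1 and 18.6% in SPI, and the groups did not overlap. This share comes from the same deposited values as the shift and is not an independent measure. FPKM divides by all mapped reads, so that a lower share on genes lowers the FPKM of genes in general, and its part in the shift was not tested. Values are therefore given as deposited and also after median-ratio scaling, which divides each library by its median ratio to the geometric mean library (1.14, 1.07 and 1.04 in CAS, 0.978, 0.914 and 0.91 in SPI) and brings the median difference to 0.00. After scaling, 1060 of 9679 genes (11%) lay below and 893 (9.23%) above every CAS library in all SPI libraries.

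**Figure D1:**
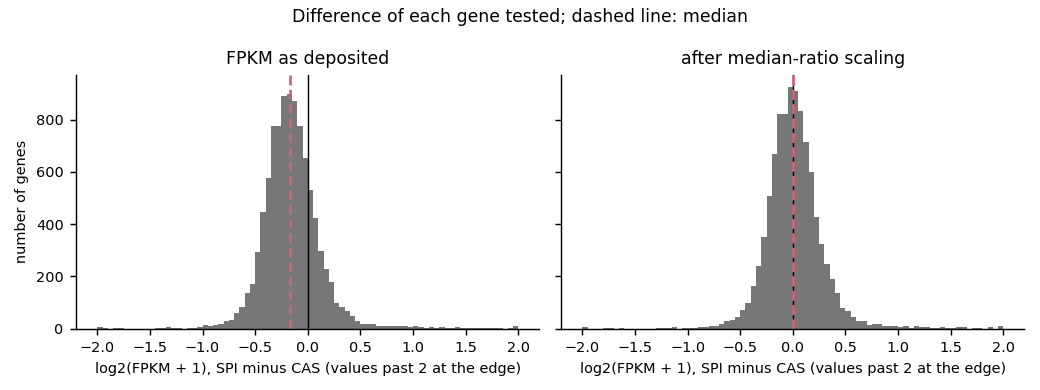
Number of genes by the difference of their mean log2(FPKM + 1), SPI minus CAS, with FPKM as deposited on the left and after median-ratio scaling on the right. The dashed line marks the median, -0.17 on the left and 0.00 on the right, and values beyond 2 are drawn at the edge.

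Library SPI 1 stood apart from SPI 2 and SPI 3. The summed level of 43 hepatocyte markers was 2785, 121 and 102 FPKM in SPI 1 to 3 and 100.3, 319 and 596 FPKM in CAS 1 to 3, and albumin (Alb) alone was at 1119 FPKM in SPI 1. The summed level of 32 adipocyte markers was 1931, 1376 and 307 FPKM in SPI and 613, 357 and 373 FPKM in CAS, so that SPI 1 and SPI 2 lay above all CAS libraries and SPI 3 below them. Values without SPI 1 are given beside the lists and genes that it moves most. A few abundant housekeeping genes, among them Gpx1 and Rpl36, are listed at 0 in all 6 libraries, so that a 0 in these files can also be a failed estimate. An exact permutation test of 3 against 3 libraries cannot give a p below 0.1, and tests were therefore made with limma over all genes. The p-values measure the spread between pools.

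At an adjusted p under 0.05 and a difference of at least 2-fold, limma called 1 gene higher in SPI (0.0103% of the genes tested) and 6 lower (0.0618%). The gene called higher was Ggct, and the genes called lower were Ugt2b10, Cldn4, Fxyd7, Degs2, Tnfrsf19 and Mln. Without the 2-fold limit 1 gene was higher and 14 were lower, which added Clu, Spint1, RT1-T24-4, RT1-A1, Rprm, Foxa2, Galr2 and Adamts1. After median-ratio scaling limma called 0 genes higher (0.0%) and 0 lower (0.0%), with a smallest adjusted p of 0.061, while 670 genes (6.92%) were higher and 671 (6.93%) lower at an unadjusted p under 0.05. As deposited, 143 genes (1.47%) were higher and 2490 (25.7%) lower at that unadjusted p. With scaling and SPI 1 left out, 5 genes were called higher (0.0525%), namely Ggct, Igf1, LOC689064, Taf1d and Mir143, and 6 were called lower (0.063%), namely Ugt2b10, Cldn4, Agps, Klc3, LOC500035 and Rps19bp1. Ggct, Ugt2b10 and Cldn4 were the 3 genes called both there and as deposited with all libraries. The counts as deposited rest on single libraries of both diets: limma called 1 gene higher and 0 lower without CAS 1, 0 and 0 without CAS 2 or without CAS 3, 2 and 17 without SPI 1, 0 and 1 without SPI 2, and 4 and 2 without SPI 3.

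Ugt2b10 encodes a UDP-glucuronosyltransferase, an enzyme of the family that attaches glucuronic acid to steroids and plant compounds so that they can be excreted. It lies at chr14:22725811-22745391 on the plus strand (build rn4), and its promoter is printed above. Its level was 6.07, 5.98 and 7.1 FPKM in CAS and 1.7, 1.13 and 0.74 FPKM in SPI, in the order of libraries 1 to 3 that is kept throughout. Every SPI library was far below every CAS library, on an estimated 60 to 81 fragments per CAS library and 10 to 18 per SPI library. The log2 difference was -1.77 (SE 0.17, n = 3 and 3, limma adjusted p = 0.042), 3.42-fold lower on the log2(FPKM + 1) scale. It was -1.63 after scaling (adjusted p = 0.061) and -1.78 with scaling and without SPI 1 (adjusted p = 0.027). Of 30 measured glucuronosyltransferases, sulfotransferases and enzymes that make their co-substrates, 11 were tested, 0 were called higher and Ugt2b10 alone was called lower, while 0 were higher and 2 lower at an unadjusted p under 0.05, below the 25.7% of all genes that were lower. The median of the list was -0.09. The sulfotransferase Sult2a1 was at 0.843, 4.01 and 6.59 FPKM in CAS and 13.8, 0.0263 and 0.95 FPKM in SPI, highest in SPI 1, where the hepatocyte markers were also highest, and its log2 difference of -0.42 became -1.44 with scaling and without SPI 1. The highest members, Papss2 and Ugp2, which make the sulfate donor and UDP-glucose, had log2 differences of 0.29 and 0.25, with overlap.

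Cldn4, a claudin of the tight junctions between epithelial cells, lies at chr12:22816134-22817931 (rn4). Its level was 18.6, 18.9 and 20.2 FPKM in CAS and 10.1, 6.19 and 7.52 FPKM in SPI, with no overlap. The log2 difference was -1.21 (SE 0.16, adjusted p = 0.049), -1.01 after scaling (adjusted p = 0.067) and -1.15 with scaling and without SPI 1 (adjusted p = 0.039). Fxyd7, a small membrane protein that tunes the sodium-potassium pump, was at 9.46, 9.51 and 12.9 FPKM in CAS and 4.12, 3.08 and 3.64 FPKM in SPI (log2 difference -1.33, SE 0.15, adjusted p = 0.042). Degs2, a sphingolipid desaturase and hydroxylase, was at 25.7, 21.9 and 20.9 FPKM in CAS and 12.6, 9.41 and 9.93 FPKM in SPI (log2 difference -1.04, SE 0.14, adjusted p = 0.049). Tnfrsf19, a receptor of the tumor necrosis factor family, was at 6.58, 4.79 and 6.22 FPKM in CAS and 1.7, 2.26 and 1.42 FPKM in SPI (log2 difference -1.30, SE 0.16, adjusted p = 0.044). In all 4 genes every SPI library was below every CAS library, and the distance between the groups was larger than the spread within them. After scaling the adjusted p was 0.061 for Fxyd7, 0.061 for Degs2 and 0.061 for Tnfrsf19.

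Mln, the gene of the gut hormone motilin, was called lower but rests on almost no reads. It was at 4.15, 3.13 and 9.72 FPKM in CAS, from an estimated 1, 1 and 2 fragments on a transcript of 206 bases, and is listed at 0 in all 3 SPI libraries. Mln thus entered the test through the CAS libraries alone. Ggct, the enzyme gamma-glutamylcyclotransferase of glutathione breakdown, was called higher. It was at 5.84, 3.62 and 3.04 FPKM in CAS and 12.1, 17.5 and 20.4 FPKM in SPI, with no overlap between the groups. The log2 difference was 1.78 (SE 0.24, adjusted p = 0.049), 3.43-fold higher, and 2.20 with scaling and without SPI 1 (adjusted p = 0.027). The symbol covers 2 near-identical copies on rn4 chromosome 4, between which the assignment of reads is uncertain. The plot of FPKM by library shows these genes in all 4 groups.

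**Figure D2:**
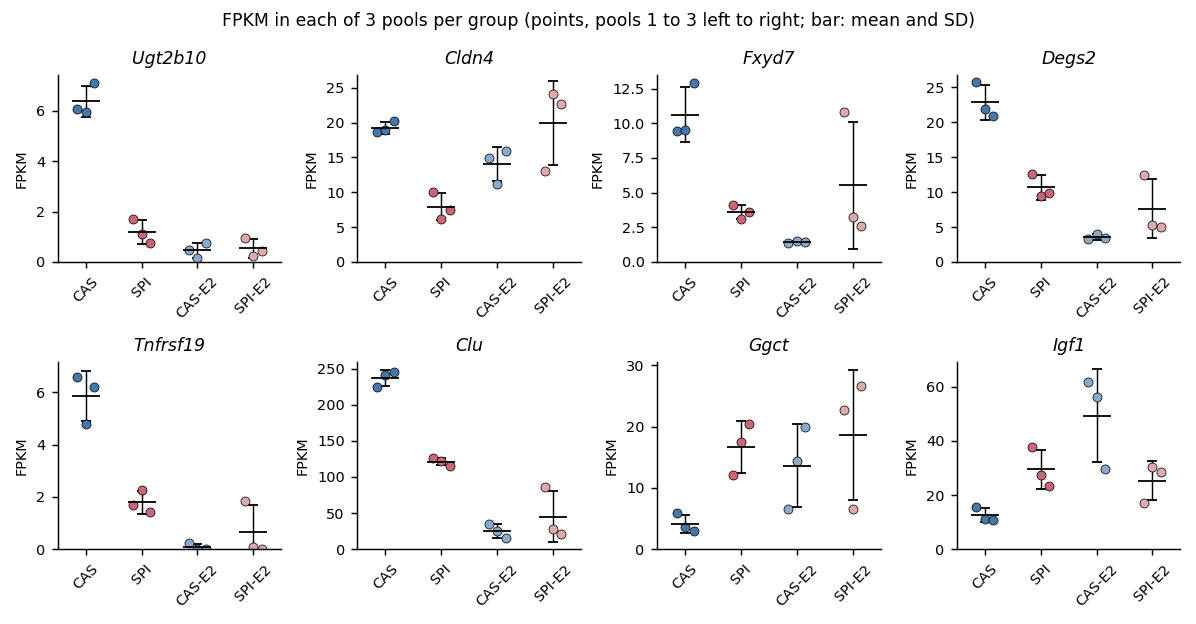
FPKM of 8 genes in each of the 3 pools of the CAS, SPI, CAS-E2 and SPI-E2 groups, drawn as points, with a bar for the mean and its SD. For Ugt2b10, Cldn4, Fxyd7, Degs2, Tnfrsf19 and Clu all SPI points lie below all CAS points, and for Ggct and Igf1 they lie above them.

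Of the genes past the adjusted p but not the 2-fold limit, clusterin (Clu), a secreted chaperone, had the highest level. Clu was at 225, 241 and 245 FPKM in CAS and 126, 122 and 116 FPKM in SPI, or 237 ± 10.6 FPKM in CAS and 121 ± 4.91 FPKM in SPI (mean ± SD, n = 3 and 3), and its log2 difference was -0.96 (SE 0.11, adjusted p = 0.042). Spint1, an inhibitor of epithelial surface proteases, was at 9.4, 9.23 and 9.05 FPKM in CAS and 4.73, 4.33 and 4.36 FPKM in SPI (log2 difference -0.90, SE 0.10, adjusted p = 0.042). Foxa2, the forkhead factor of uterine glands, was at 8.55, 8.18 and 10.9 FPKM in CAS and 3.99, 4.38 and 4.11 FPKM in SPI (log2 difference -0.97, SE 0.13, adjusted p = 0.049). These were low in all 3 SPI libraries to a similar degree. Rprm, which encodes the cell cycle inhibitor reprimo, was at 121, 104 and 106 FPKM in CAS and 58.6, 58.9 and 54.2 FPKM in SPI (log2 difference -0.93, SE 0.11, adjusted p = 0.044). The galanin receptor Galr2 was at 34.9, 33.4 and 41 FPKM in CAS and 19.96, 20.3 and 19.1 FPKM in SPI (log2 difference -0.84, SE 0.11, adjusted p = 0.049). The class I histocompatibility genes RT1-T24-4 and RT1-A1 had log2 differences of -0.90 and -0.98 (adjusted p = 0.042 and 0.049) and belong to a family of similar genes between which the assignment of short reads is uncertain. Adamts1, a secreted matrix protease, was at 10.4, 9.61 and 10.5 FPKM in CAS and 6.06, 5.42 and 5.23 FPKM in SPI (log2 difference -0.76, SE 0.10, adjusted p = 0.0496). Scaling brought the log2 differences of these 8 genes to between -0.58 and -0.80, and limma passed none of them at the adjusted p.

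Genes of the uterine epithelium were, of the 38 gene lists examined, the list with the lowest median as deposited. Of 30 measured markers 29 were tested, and in 24 of them all SPI libraries lay below every CAS library, against 32.2% of all genes. They lay above in 0. The median log2 difference was -0.51 against -0.17 over all genes, and 24 of the 29 were lower at an unadjusted p under 0.05, against 25.7% of all genes. After scaling the median was -0.32, 16 of 28 lay below every CAS library (11% of all genes) and 1 above, and 15 were lower at an unadjusted p under 0.05 (6.93% of all genes). Leaving out SPI 1 as well gave a median of -0.36. The summed level of the list was 486, 463 and 495 FPKM in CAS and 332, 270.0 and 309.6 FPKM in SPI.

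The members with the lowest differences were Cldn4, given above, and Muc1, the mucin of the apical surface, which was at 9.12, 7.97 and 11.5 FPKM in CAS and 4.13, 5.29 and 3.29 FPKM in SPI (log2 difference -1.01, SE 0.18, adjusted p = 0.054). The highest were Marveld2 (tricellulin), with a log2 difference of 0.12, and Prom1, with -0.16 (adjusted p = 0.55 and 0.55). Common markers of simple epithelium, picked here after their values were seen, were well above the 1 FPKM minimum in both groups. The keratin Krt8 was at 47.4, 42.2 and 41.4 FPKM in CAS and 33.8, 24.4 and 30.7 FPKM in SPI (log2 difference -0.55, SE 0.14, adjusted p = 0.076). E-cadherin (Cdh1) was at 20.1, 17.3 and 17.2 FPKM in CAS and 11.5, 11.2 and 11.6 FPKM in SPI (log2 difference -0.62, SE 0.10, adjusted p = 0.054). Both were lower in all SPI libraries, while Epcam, at 57.1, 44.1 and 52.9 FPKM in CAS and 47.9, 35.7 and 35 FPKM in SPI, overlapped between the groups. Over the 22 tight junction genes tested the median was -0.30, and -0.16 after scaling. The lowest of them besides Cldn4 was Cldn7, at 15.6, 15.6 and 14.6 FPKM in CAS and 8.91, 6.07 and 8.57 FPKM in SPI (log2 difference -0.89, SE 0.14, adjusted p = 0.054). The highest, Cldn15, was at 1.68, 0.421 and 0.327 FPKM in CAS and 3.28, 3.49 and 0.859 FPKM in SPI, with overlap, and Cldn10 followed it (log2 difference 0.21, and -0.03 without SPI 1).

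**Figure D3:**
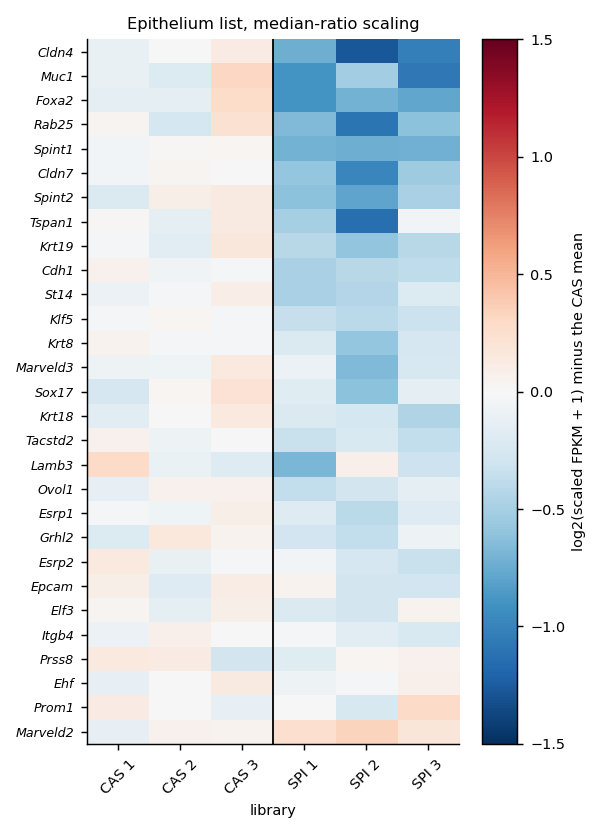
Log2(FPKM + 1) after median-ratio scaling of the 29 tested epithelial markers in each library, minus the mean of the 3 CAS libraries, in blue where lower and red where higher. The SPI columns are blue for most genes, and the scaled mean difference is -1.01 for Cldn4, -0.83 for Muc1 and -0.80 for Foxa2, against 0.25 for Marveld2.

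Genes known to answer to estrogen in the uterus did not share a direction. The list holds genes that were higher with E2, such as S100g, and genes that were lower. Clu had a mean of 237 FPKM in CAS and 25.4 FPKM in CAS-E2. The direction and median of the list therefore cannot show whether the SPI diet acted like E2. Of 31 measured members 24 were tested, and limma called 0 higher and 0 lower. The median was -0.17, near that of all genes, and 0.01 after scaling. At an unadjusted p under 0.05, 2 members were higher and 8 lower, and after scaling 3 were higher and 6 lower. Of all genes 1.47% were higher and 25.7% lower at that p, and 6.92% and 6.93% after scaling. The highest members were Oxtr, the oxytocin receptor, and Igf1, a growth factor through which uterine stroma signals to the epithelium. Oxtr was at 3.9, 1.47 and 2.12 FPKM in CAS and 13, 10.8 and 3.43 FPKM in SPI, with overlap because SPI 3 was below CAS 1 (log2 difference 1.42, SE 0.43, adjusted p = 0.098). The lowest were Muc1 and Clu, given above. S100g, a calcium-binding protein long used as an estrogen response gene of rat uterus, was at 13.9, 3.5 and 4.66 FPKM in CAS and 4.55, 6.22 and 18.9 FPKM in SPI, with overlap, and its log2 difference of 0.35 was 0.73 without SPI 1. Under E2 it was at 679, 1149 and 687 FPKM in CAS-E2 and 116, 482 and 513 FPKM in SPI-E2.

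The estrogen receptor Esr1 was at 39.2, 39.9 and 40.7 FPKM in CAS and 29, 32.5 and 24.5 FPKM in SPI (log2 difference -0.47, SE 0.12, adjusted p = 0.077), and the groups overlapped after scaling (log2 difference -0.27, adjusted p = 0.36). The level of Esr1 sums 2 transcripts that are placed on 2 chromosomes. The progesterone receptor Pgr, itself induced by Esr1, was at 21, 23.2 and 23.4 FPKM in CAS and 15.9, 17.7 and 15.4 FPKM in SPI (log2 difference -0.44, SE 0.10, adjusted p = 0.073), and also overlapped after scaling. Esr2, the receptor that isoflavones prefer, was between 0 and 0.201 FPKM in these 6 libraries and was not tested. Among 15 tested steroid receptors and coregulators the lowest was Gata2, a transcription factor of progesterone signaling, at 31.6, 33.2 and 37.6 FPKM in CAS and 21.3, 21.6 and 22.7 FPKM in SPI (log2 difference -0.62, SE 0.11, adjusted p = 0.054). The highest, Nrip1 and Nr3c1, had log2 differences of -0.01 and -0.10, with overlap. The list had a median of -0.24, and -0.13 after scaling.

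Igf1 lies at chr7:24531669-24605742 (rn4) and its level sums 4 transcripts. It was at 15.7, 11.3 and 10.9 FPKM in CAS and 37.6, 27.6 and 23.4 FPKM in SPI, with no overlap. The log2 difference was 1.15 (SE 0.20, adjusted p = 0.054), 1.35 after scaling (adjusted p = 0.061) and 1.20 with scaling and without SPI 1 (adjusted p = 0.041). Among the SPI libraries its order was that of the adipocyte markers, and their part in the difference was not tested. Of the 19 tested genes of insulin-like growth factor and insulin signaling, the next highest was the glucose transporter of fat and muscle, Slc2a4, at 3.44, 2.29 and 2.12 FPKM in CAS and 8.23, 5.61 and 3.86 FPKM in SPI (log2 difference 0.90, SE 0.24, adjusted p = 0.081). The lowest were the kinase Akt1 (log2 difference -0.50, adjusted p = 0.065) and the receptor Igf1r (-0.44, adjusted p = 0.11). The median of this list was -0.16, and 0.02 after scaling.

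Wnt and hedgehog signals pass between epithelium and stroma in the uterus. Of 30 tested Wnt pathway genes 15 lay below every CAS library in all SPI libraries and 0 above, and after scaling 9 and 0 did, against 32.2% below and 1.87% above among all genes, and 11% and 9.23% after scaling. The median was -0.37, and -0.19 after scaling. The receptor Fzd2 was lowest, at 19.1, 20.6 and 21.9 FPKM in CAS and 13.1, 11.7 and 10.7 FPKM in SPI (log2 difference -0.75, SE 0.11, adjusted p = 0.054). The ligand Wnt4 followed, at 7.2, 8.04 and 8.43 FPKM in CAS and 4.83, 4.37 and 4 FPKM in SPI (log2 difference -0.72, SE 0.11, adjusted p = 0.054). Both separated the groups with and without scaling, while the highest members, Fzd4 and Lef1 (log2 differences 0.34 and 0.23), overlapped, and the difference of Fzd4 was 0.10 without SPI 1. The 12 tested hedgehog genes had a median of -0.32, and -0.19 after scaling. The receptor Ptch1 was at 7.8, 8.98 and 9.67 FPKM in CAS and 4.37, 6.84 and 4.99 FPKM in SPI (log2 difference -0.63, SE 0.16, adjusted p = 0.077), while the ligand Ihh, at 2.47, 2.2 and 4.49 FPKM in CAS and 3.31, 1.93 and 3.4 FPKM in SPI, overlapped. The next lowest, the pathway inhibitor Sufu, and the second highest, the ligand Bmp2, had log2 differences of -0.51 and -0.09, with overlap. Limma called 0 members of either list, and at an unadjusted p under 0.05 16 Wnt and 5 hedgehog genes were lower, against 25.7% of all genes, and 0 of either list were higher, against 1.47%. After scaling 9 Wnt and 3 hedgehog genes were lower, against 6.93% of all genes.

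Globin genes had higher values in every SPI library. All 4 erythroid markers tested lay above every CAS library in all SPI libraries with and without scaling, against 1.87% of all genes as deposited and 9.23% after scaling. The alpha globin Hba-a2 was at 296, 285 and 309.7 FPKM in CAS and 604, 418 and 634 FPKM in SPI (log2 difference 0.87, SE 0.18, adjusted p = 0.068). The beta globin Hbb was at 118, 105 and 97.5 FPKM in CAS and 243, 163 and 173 FPKM in SPI (log2 difference 0.83, SE 0.17, adjusted p = 0.068), and passed with scaling and without SPI 1 at a smaller difference than 2-fold (0.89, adjusted p = 0.04). The other globin genes at the upper end were Hbb-b1 (log2 difference 1.30), LOC689064 (1.05), LOC100134871 (0.97) and LOC287167 (0.80), the last 3 named as globins in the reference. LOC689064 was called with scaling and without SPI 1 (1.16, adjusted p = 0.028). These 6 genes are near-identical copies in part, between which the assignment of 36-base reads is uncertain, and they are not independent. Alas2, the heme synthesis enzyme of red cells, was at 2.11, 1.59 and 3.08 FPKM in CAS and 3.09, 3.5 and 3.64 FPKM in SPI (log2 difference 0.46, SE 0.17, adjusted p = 0.14), above the CAS values by a narrow margin.

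Among other genes at the upper end, Taf1d, a subunit of the factor that starts ribosomal RNA transcription, was at 2.18, 1.92 and 2.01 FPKM in CAS and 3.61, 4.81 and 5.16 FPKM in SPI (log2 difference 0.85, SE 0.14, adjusted p = 0.054). Chrdl1, a secreted inhibitor of bone morphogenetic proteins, was at 1.97, 1.85 and 1.17 FPKM in CAS and 4.59, 3.31 and 4.45 FPKM in SPI (log2 difference 0.95, SE 0.17, adjusted p = 0.056). Ogn, a proteoglycan of connective tissue, was at 6.75, 6.71 and 3.99 FPKM in CAS and 10.5, 14.8 and 11.4 FPKM in SPI (log2 difference 0.98, SE 0.20, adjusted p = 0.068). In each of these the lowest SPI library was above the highest CAS library. Rbp7, a retinol-binding protein, was at 3.27, 2.96 and 2.3 FPKM in CAS and 10.3, 6.4 and 5.29 FPKM in SPI (log2 difference 1.08, SE 0.22, adjusted p = 0.068), with the same order of SPI libraries as the adipocyte markers. The stress-induced Nupr1 and the zinc finger gene Zc3h15 had log2 differences of 0.56 and 0.62 and did not overlap between the groups. At the lower end, LOC500035 was at 19, 16.9 and 19.4 FPKM in CAS and 6.25, 4.65 and 2.12 FPKM in SPI (log2 difference -1.95, SE 0.27, adjusted p = 0.054). The genes not called as deposited with all libraries but called with scaling and without SPI 1 included Agps, an enzyme of ether lipid synthesis, at 5.28, 3.98 and 4.64 FPKM in CAS and 1.94, 1.03 and 0.508 FPKM in SPI, and the kinesin light chain Klc3, at 6.87, 5.56 and 6.97 FPKM in CAS and 3.22, 1.27 and 1.54 FPKM in SPI, both below CAS in all 3 SPI libraries. Mir143, a microRNA gene of 105 bases in the files, was at 46.7, 35.2 and 54.7 FPKM in CAS and 45.7, 109 and 144 FPKM in SPI, and Rps19bp1 was at 4.73, 4.22 and 4.53 FPKM in CAS and 4.21, 1.34 and 0.992 FPKM in SPI, so that SPI 1 lay near the CAS values in both. Leaving out SPI 1 without scaling also called these 4 genes.

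Immune, stromal and ribosomal lists lay above the median of all genes. The 18 tested leukocyte markers had a median of 0.36, with 2 above every CAS library in all SPI libraries, against 1.87% of all genes, and 0 below, against 32.2%. After scaling 9 of 16 lay above, against 9.23% of all genes. Without SPI 1 the median of the members still tested was 0.13, and 0.28 with scaling. The neutrophil genes Mpo and S100a9 were highest (log2 differences 1.01 and 0.83), and Kit and Cd14 were lowest (-0.31 and -0.19). Of these 4, S100a9 alone did not overlap. Of 35 tested complement and coagulation genes the highest was the ficolin Fcn1, a lectin of myeloid cells, at 1.65, 1.44 and 1.79 FPKM in CAS and 12, 5.96 and 2.93 FPKM in SPI (log2 difference 1.43, SE 0.37, adjusted p = 0.077). It had the order of SPI libraries of the adipocyte markers. Cfd, a complement protease that fat cells secrete, followed (log2 difference 1.22, and 0.56 without SPI 1), and F3, the tissue factor, and the urokinase receptor Plaur were lowest (-0.41 and -0.34), all 3 with overlap. The median of the list was 0.17, and -0.03 without SPI 1. Among 33 interferon-induced genes 6 lay above and 4 below every CAS library, and 12 and 0 after scaling. Among all genes these shares were 1.87% and 32.2%, and 9.23% and 11% after scaling. Ifit1, an antiviral RNA-binding protein, was at 1.24, 1.43 and 0 FPKM in CAS and 3.37, 3.49 and 3.09 FPKM in SPI (log2 difference 1.29, SE 0.31, adjusted p = 0.073). The chemokine Cxcl9 was at 1.53, 0.865 and 0 FPKM in CAS and 3.37, 2.39 and 2.65 FPKM in SPI (log2 difference 1.17, SE 0.31, adjusted p = 0.081). Both are low, and both are listed at 0 in CAS 3. The lowest, the virus-tethering Bst2 and the RNA sensor Dhx58, had log2 differences of -0.47 and -0.24, below every CAS library, and overlapped after scaling. The 21 stromal fibroblast markers had a median of 0.00, and 0.21 after scaling, with 8 above and 0 below every CAS library after scaling, against 9.23% and 11% of all genes. Mfap5, a microfibril protein, had a log2 difference of 0.91, and the transcription factors Hand2 and Hoxa10 were lowest (-0.59 and -0.42). The 76 ribosomal protein genes had a median of -0.02, and 0.19 after scaling, and ran from Rps3 and Rpl18 (log2 differences -0.54 and -0.44) to Rpl31 and Rpl38 (0.46 and 1.00). Limma called 0 members of these 5 lists, and at an unadjusted p under 0.05 2 leukocyte, 4 complement and coagulation, 2 interferon-induced, 2 stromal and 1 ribosomal protein genes were higher, against 1.47% of all genes.

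**Figure D4:**
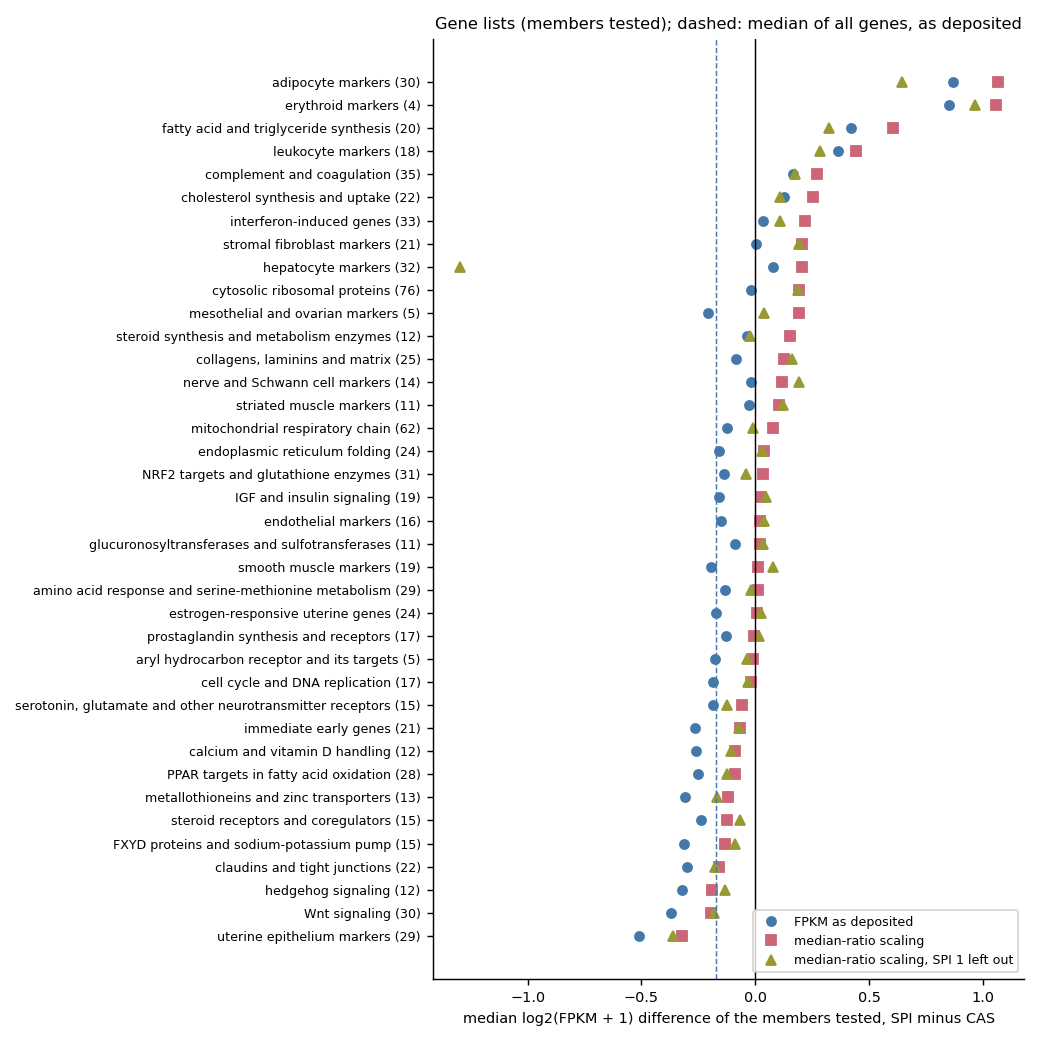
Median difference on the log2(FPKM + 1) scale, SPI minus CAS, of the tested members of 38 gene lists (number tested in parentheses), with FPKM as deposited, after median-ratio scaling and after scaling with SPI 1 left out. After scaling the epithelial list is lowest, at -0.32, the adipocyte and erythroid lists are highest, at 1.06 and 1.06, and the hepatocyte list moves from 0.20 to -1.30 when SPI 1 is left out.

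Fat cell genes were high in SPI 1 and SPI 2 but not in SPI 3. Fabp4, the fatty acid-binding protein of adipocytes, was at 57.6, 21.9 and 26.6 FPKM in CAS and 270.2, 182 and 43.2 FPKM in SPI (log2 difference 1.97, SE 0.64, adjusted p = 0.11). The carbonic anhydrase Car3 was at 69.3, 21.8 and 30.2 FPKM in CAS and 292, 168 and 25.5 FPKM in SPI (log2 difference 1.57, SE 0.82, adjusted p = 0.26). Without SPI 1 the log2 differences were 1.43 and 0.86. The lowest members were Cebpb, a transcription factor that other cells also use, and the desaturase Scd (-0.72 and -0.24), and Cebpb lay below every CAS library in all SPI libraries. Of the 30 tested adipocyte markers 1 lay above every CAS library in all SPI libraries and 1 below, against 1.87% and 32.2% of all genes, and the median was 0.87, 1.06 after scaling and 0.64 with SPI 1 left out as well. The 2 highest enzymes of the fat synthesis list had the same order of SPI libraries as the adipocyte markers. The malic enzyme Me1 was at 8.1, 5.61 and 4.44 FPKM in CAS and 27.4, 26.7 and 4.75 FPKM in SPI, and the desaturase Scd1 was at 99.8, 49.9 and 44.7 FPKM in CAS and 364, 326 and 24.2 FPKM in SPI. Their log2 differences of 1.26 and 1.23 were 0.87 and 0.56 without SPI 1, and Dgat1, an enzyme of triglyceride synthesis, was lowest in that list (-0.26). In Dgat1, SPI 3 lay above SPI 2. Pla2g2a, a secreted phospholipase, was at 2.15, 1.8 and 2.23 FPKM in CAS and 29.4, 15.1 and 4.04 FPKM in SPI, the highest difference of the prostaglandin list (log2 difference 2.15, SE 0.55, adjusted p = 0.077), and 1.56 without SPI 1. Pla2g5, of the same enzyme family, followed (0.80), above every CAS library, and the lowest besides Ptger3 was the thromboxane receptor Tbxa2r (-0.47), below every CAS library. Limma called 0 members of these lists, and at an unadjusted p under 0.05 5 adipocyte, 0 fat synthesis and 2 prostaglandin genes were higher, against 1.47% of all genes.

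Liver genes separated single libraries and not the diets. A1bg, a plasma protein of hepatocytes, was at 0.18, 1.63 and 3.8 FPKM in CAS and 78.7, 0.141 and 0.554 FPKM in SPI, and the apolipoprotein Apoa2 was at 1.92, 9.63 and 39.6 FPKM in CAS and 60.6, 0.499 and 0 FPKM in SPI. Of 32 tested hepatocyte markers 0 lay above and 0 below every CAS library in all SPI libraries, against 1.87% and 32.2% of all genes. The median of the list, 0.08, became -1.30 with scaling and without SPI 1. The log2 difference of Apoa2 was -1.26, and -3.14 without SPI 1, and Cyp2e1 was the next lowest (-1.08, and -1.66). A1bg and the retinol carrier Rbp4 were highest (1.08 and 1.03), and the difference of Rbp4 was 0.31 without SPI 1. Cyp1a2, a drug-metabolizing enzyme of liver that the aryl hydrocarbon receptor induces, was at 0.0991, 5.46 and 3.83 FPKM in CAS and 26.9, 0.503 and 1.71 FPKM in SPI, so that its log2 difference of 0.58 became -0.57 with scaling and without SPI 1. The lowest of the 5 tested genes of this receptor were Ugt1a6 and Arnt, the partner of the receptor (-0.39 and -0.31), which overlapped after scaling. Nqo1, an oxidative stress enzyme that this receptor and NRF2 induce, was at 4.29, 3.07 and 3.89 FPKM in CAS and 4.41, 3.18 and 3.79 FPKM in SPI (log2 difference 0.01, SE 0.15). Of 31 tested NRF2 targets and glutathione enzymes the lowest were Gstm1, at 82.8, 90.8 and 89.4 FPKM in CAS and 58.4, 56.1 and 47.4 FPKM in SPI (log2 difference -0.69, SE 0.12, adjusted p = 0.054), and Srxn1, at 1.3, 1.49 and 1.58 FPKM in CAS and 0.536, 0.524 and 0.589 FPKM in SPI (log2 difference -0.66, SE 0.13, adjusted p = 0.065). Srxn1 reached 1 FPKM in the CAS libraries alone and entered the test only through them. The highest of the list, the glutathione transferase Mgst1 and the secreted peroxidase Gpx3, had log2 differences of 0.47 and 0.44, and 0.03 and 0.25 without SPI 1, with overlap. The median of the list was -0.14, -0.27 without SPI 1 and 0.03 after scaling. At an unadjusted p under 0.05, 7 members were lower and 0 higher, against 25.7% and 1.47% of all genes.

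**Figure D5:**
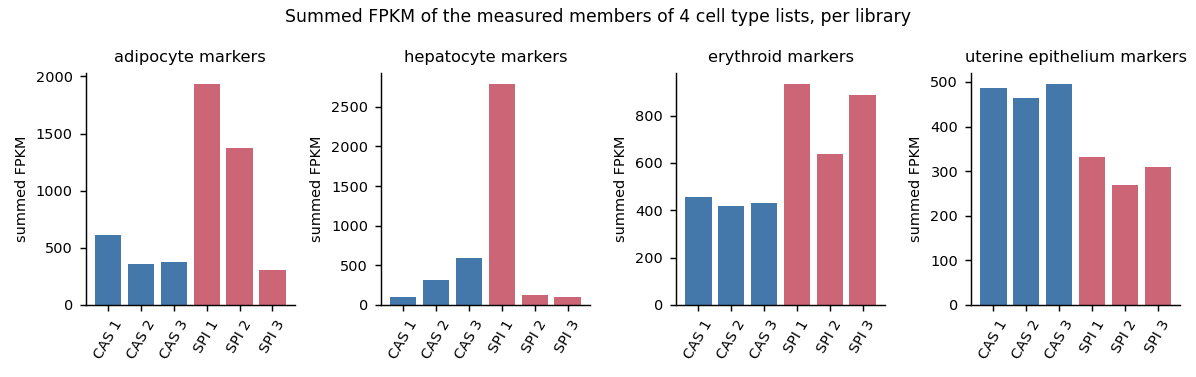
Summed FPKM of the measured adipocyte, hepatocyte, erythroid and uterine epithelium markers in each CAS (blue) and SPI (red) library. Epithelial sums are lower and erythroid sums higher in all 3 SPI libraries (932, 636 and 885 FPKM against 454, 417 and 431 FPKM in CAS), while adipocyte sums are high in SPI 1 and SPI 2 and the hepatocyte sum is high in SPI 1.

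The amino acid, zinc and fat oxidation lists held members with differences in both directions. Of 29 tested genes of the amino acid response and of serine and methionine metabolism limma called 0, with 2 higher and 2 lower at an unadjusted p under 0.05, against 1.47% and 25.7% of all genes, and the median was -0.13, -0.24 without SPI 1 and 0.01 after scaling. The highest was Cdo1, which begins the breakdown of cysteine, at 11, 4.04 and 5.77 FPKM in CAS and 37.3, 25.6 and 5.6 FPKM in SPI, with overlap (log2 difference 1.34, SE 0.61, adjusted p = 0.20), and 0.83 without SPI 1. Psat1, an enzyme of serine synthesis, was at 2.69, 2.69 and 1.87 FPKM in CAS and 5.2, 4.2 and 3.13 FPKM in SPI (log2 difference 0.59, SE 0.18, adjusted p = 0.098). The lowest were Ddit4, an inhibitor of the growth kinase mTOR, and Psph, the last enzyme of serine synthesis (-0.65 and -0.47), and both overlapped after scaling. The metallothionein Mt1a was at 447, 370.0 and 401 FPKM in CAS and 258, 265 and 349.6 FPKM in SPI (log2 difference -0.49, SE 0.16, adjusted p = 0.11). The zinc exporter Slc30a1 was at 8.76, 8.11 and 7.57 FPKM in CAS and 6.57, 5.62 and 3.95 FPKM in SPI (log2 difference -0.54, SE 0.16, adjusted p = 0.097). Psat1 was thus higher, and the 2 zinc-linked genes lower, in all SPI libraries, although Mt1a overlapped after scaling. The highest of the 13 tested zinc-linked genes were the importer Slc39a8 and Mt3 (0.12 and 0.05), with overlap, and the difference of Mt3 was -0.30 without SPI 1. Of 28 tested genes of fatty acid oxidation the lowest was the dehydrogenase Acads, at 11, 10.2 and 11 FPKM in CAS and 7.84, 5.51 and 5.35 FPKM in SPI (log2 difference -0.71, SE 0.14, adjusted p = 0.068), and the fatty acid transporter Slc27a1 followed (-0.59). The highest was Angptl4, an inhibitor of lipoprotein lipase, at 1.23, 0.679 and 0.67 FPKM in CAS and 5.05, 1.79 and 1.57 FPKM in SPI, above CAS in all SPI libraries with and without scaling (log2 difference 0.93, SE 0.32, adjusted p = 0.12), and 0.54 without SPI 1. The next, Fabp1, a fatty acid-binding protein of liver, went from 0.35 to -1.29 without SPI 1. The median of the list was -0.25, and -0.09 after scaling, with 8 members below every CAS library and 1 above, against 32.2% and 1.87% of all genes. The sodium pump regulators at the ends of the FXYD list, besides Fxyd7, differed in sign. Fxyd2 was at 2.56, 1.93 and 6 FPKM in CAS and 15.1, 6.01 and 11.8 FPKM in SPI (log2 difference 1.43, SE 0.38, adjusted p = 0.081), and Fxyd1 was at 114, 123 and 180.5 FPKM in CAS and 88.8, 60.9 and 68.3 FPKM in SPI (log2 difference -0.92, SE 0.21, adjusted p = 0.069). Sgk1, a kinase that acts on epithelial sodium channels, was the next highest after Fxyd2 (0.31), above CAS in all SPI libraries. The Fxyd2 and Fxyd1 transcripts are 239 and 268 bases long, a length at which FPKM is uncertain. Fxyd2 also rests on almost no reads, an estimated 0, 0 and 1 fragments in CAS and 5, 2 and 5 in SPI.

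Receptor genes among the lowest values were mostly faint. The glutamate receptor Grik2 was at 2.57, 3.54 and 1.41 FPKM in CAS and 0.695, 0.128 and 0.294 FPKM in SPI (log2 difference -1.33, SE 0.26, adjusted p = 0.065). Grik2 reached 1 FPKM in the CAS libraries alone and entered the test only through them. The serotonin receptor Htr1b was at 1.82, 3.6 and 4.76 FPKM in CAS and 1.24, 1.32 and 0.647 FPKM in SPI (log2 difference -1.04, SE 0.27, adjusted p = 0.077). Lgi4, secreted by Schwann cells, was at 2.53, 3.08 and 2.97 FPKM in CAS and 1.07, 1.3 and 1.2 FPKM in SPI (log2 difference -0.82, SE 0.12, adjusted p = 0.054). The prostaglandin receptor Ptger3, at a higher level, was at 18.3, 19.2 and 24.1 FPKM in CAS and 14.5, 10.3 and 8.27 FPKM in SPI (log2 difference -0.86, SE 0.20, adjusted p = 0.071). All 4 were lower in every SPI library than in any CAS library. The highest neurotransmitter receptors were Oxtr, given above, and the adrenergic receptor of fat cells, Adrb3 (0.77), with overlap. Of the genes that the study lists as highest and lowest in SPI, 30 and 21 symbols were measured and 25 and 19 tested. Those lists were chosen on these libraries, so that their direction is not independent evidence. The study chose them by its own test on reads, at an adjusted p under 0.05 and a 2-fold change. By that test the paper reports more genes higher than lower with soy, unlike the counts given here. Of the 25 listed as high, 24 had a difference above 0, while 77.8% of all genes lay below 0. Of the same 25, 4 lay above every CAS library in all SPI libraries (1.87% of all genes), 8 were higher at an unadjusted p under 0.05 (1.47% of all genes) and limma called 0. Of the 19 listed as low, 18 had a difference below 0 (77.8% of all genes), 16 lay below every CAS library (32.2% of all genes) and 2 were called, Cldn4 and Fxyd7.

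The same diets were also compared under E2, in libraries that the comparison above does not use. In SPI-E2 against CAS-E2, 9541 genes were tested, and limma called 1 higher (0.0105%) and 0 lower (0.0%), with 144 higher and 134 lower at an unadjusted p under 0.05. The gene called, Mir22, has a transcript of 95 bases and is listed at 0 in the 3 CAS-E2 libraries, so that it entered the test through the SPI-E2 libraries alone. The median difference was 0.04, 426 genes (4.46%) lay above and 246 (2.58%) below every CAS-E2 library in all SPI-E2 libraries, and the epithelial list had a median of 0.18. Library SPI-E2 1 stood apart from SPI-E2 2 and SPI-E2 3, since the epithelial keratin Krt19 was at 207 FPKM there against 802 and 789 FPKM. A limma test of whether the diet difference changed with E2 called 0 of 10279 genes (0.0%), with a smallest adjusted p of 0.069 and with 1362 genes higher and 168 lower at an unadjusted p under 0.05. Without SPI-E2 1 that test called 84 of 10248 genes higher and 7 lower, Fxyd7, Degs2, Ugt2b10, Tnfrsf19 and Cldn4 among those higher. These values were not scaled, and the median of the difference tested was 0.21 over all genes, and 0.22 without SPI-E2 1. After median-ratio scaling the test called 0 genes, with 579 higher and 487 lower at an unadjusted p under 0.05. Scaling with SPI-E2 1 left out was not run for this test.

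Several of the genes named above had these levels in the E2 groups, which share no library with the comparison without E2. Ggct, called higher without E2, was at 6.52, 14.3 and 20 FPKM in CAS-E2 and 22.6, 6.56 and 26.6 FPKM in SPI-E2, with overlap. Ugt2b10 was at 0.493, 0.157 and 0.739 FPKM in CAS-E2 and 0.966, 0.221 and 0.416 FPKM in SPI-E2, below 1 FPKM in every library. Tnfrsf19 was at 0.236, 0 and 0 FPKM in CAS-E2 and 1.85, 0.0883 and 0 FPKM in SPI-E2. Degs2 was at 3.31, 4.04 and 3.4 FPKM in CAS-E2 and 12.5, 5.32 and 4.97 FPKM in SPI-E2. Under E2 all 3 libraries of the soy group thus lay above the casein group for Degs2, while Ugt2b10 and Tnfrsf19 overlapped. Fxyd7 was at 1.34, 1.5 and 1.44 FPKM in CAS-E2 and 10.8, 3.22 and 2.56 FPKM in SPI-E2, higher in all SPI-E2 libraries (difference of the diet effects 2.54, adjusted p = 0.12, and 2.00, adjusted p = 0.0084, without SPI-E2 1). Cldn4 was at 14.9, 11.2 and 15.9 FPKM in CAS-E2 and 13.1, 24.1 and 22.6 FPKM in SPI-E2, with overlap. Igf1 was at 61.6, 56.4 and 29.6 FPKM in CAS-E2 and 17, 30.2 and 28.5 FPKM in SPI-E2 (log2 difference -0.91), with overlap. Chrdl1, at 1.55, 0.981 and 0.302 FPKM in CAS-E2 and 4.22, 1.87 and 1.94 FPKM in SPI-E2, and Psat1, at 1.64, 1.24 and 1.2 FPKM in CAS-E2 and 2.48, 1.67 and 2.04 FPKM in SPI-E2, were looked at after their values were seen and lay above casein in all soy libraries with E2 as without it. Ugt2b10 and Tnfrsf19 did not reach 1 FPKM in at least 3 of the E2 libraries and were not tested between SPI-E2 and CAS-E2. None of the other differences given here between SPI-E2 and CAS-E2 passed the adjusted p.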

How the data were processed

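Poly-A RNA of pooled rat uteri was sequenced as 36-base single reads. The authors aligned the filtered reads to rn4 with TopHat2 2.0.9 and Bowtie2 2.1.0, and Cufflinks 2.1.1 estimated the FPKM of each annotated transcript in each library. The deposited files hold these FPKM values and coverages inside text, a format recorded as other, and no read counts, so that the study's own test could not be repeated. Here transcript FPKM was summed per gene symbol (113 of 16493 symbols lie on more than 1 chromosome). The test, SPI 1 to 3 against CAS 1 to 3, used limma 3.58.1 in R 4.3.3 on log2(FPKM + 1), took every gene that reached 1 FPKM in 3 or more of the 6 libraries, let the variance follow the level, and adjusted p by Benjamini-Hochberg. A fold change on that scale understates changes of low genes. Depth was implied from the ratio of coverage to FPKM, and fragments from FPKM and its upper confidence limit. The fit was tested on simulated data.

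Genes were named by rule: all called genes, the 12 with the smallest unadjusted p among those above and the 12 among those below every CAS library with and without scaling (transcripts under 200 bases left out), the 2 highest and 2 lowest tested members of each list discussed, and Esr1, Esr2 and Pgr. Adamts1, Agps, Klc3, Mir143, Rps19bp1, Alb, Krt8, Krt19, Cdh1, Epcam and Mir22 were added after their values were seen. The members and lists were chosen with earlier results of these data known. Alternatives covered scaling, single libraries, pseudocount, filter, block, weights and cutoffs.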

Additional observations from a re-analysis of the deposited data

Results flagged for a closer look

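In 6 of the 168 genes checked, all 3 soy libraries lay on 1 side of the casein libraries without E2 and on the other side with E2, or 3.57%, some of the 168 having been chosen for groups that did not overlap without E2. Of the 9060 genes tested in both comparisons 217 (2.4%) did so, 208 of them lower with soy without E2, and 26 (0.287%) lay on the same side in both. These counts are of values as deposited, without scaling. In such values, 3127 of all genes tested without E2 lay below every casein library in all soy libraries and 181 above. The 208 therefore go with a direction that most non-overlapping genes share. The difference of the diet effects (SPI-E2 minus CAS-E2, minus SPI minus CAS, log2 scale) was 2.54 for Fxyd7 (limma adjusted p = 0.12), 1.84 for Degs2 (0.14), 1.56 for Foxa2 (0.069) and 1.43 for Gata2 (0.11), all lower with soy in the absence of E2 and higher in its presence. It was -1.07 for the kinase Sgk1 (0.11) and -1.09 for Zc3h15 (0.16), higher with soy in the absence of E2 and lower in its presence. None of the 6 passed the adjusted p with all libraries. Without SPI-E2 1, limma called 4 of them, with 2.00 for Fxyd7 (adjusted p = 0.0084), 1.46 for Degs2 (0.019), 1.57 for Foxa2 (0.019) and 1.24 for Gata2 (0.019). With array weights these 4 and Sgk1 were called, and after median-ratio scaling 0 of the 6. Foxa2 was at 2.12, 1.52 and 2.42 FPKM in CAS-E2 and 3.42, 3.93 and 3.18 FPKM in SPI-E2, and Gata2 was at 8.24, 8.66 and 9.6 FPKM in CAS-E2 and 21.6, 15.2 and 13.1 FPKM in SPI-E2. Sgk1, which acts on epithelial sodium channels, was at 2.89, 2.9 and 2.11 FPKM in CAS and 3.67, 3.1 and 3.67 FPKM in SPI and, with E2, at 13, 12.3 and 10.7 FPKM in CAS-E2 and 5.88, 7.5 and 6.57 FPKM in SPI-E2. Library SPI-E2 1 lay above SPI-E2 2 and SPI-E2 3 in Degs2, Fxyd7 and Gata2 but not in Foxa2.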

How the results depend on the processing

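Without E2, limma called 1 gene higher and 6 lower as deposited. The numbers higher and lower were 0 and 0 with median-ratio scaling, 5 and 6 with that scaling and SPI 1 left out, 1 and 0 with upper-quartile scaling, 0 and 4 with a pseudocount of 0.1, 0 and 1 with a pseudocount of 5, 0 and 0 with no filter, 6 and 11 with at least 1 FPKM in all libraries, 0 and 2 in 1 fit over 12 libraries, 22 and 28 with array weights, 0 and 4 with no variance trend, and 1 and 14 with the adjusted p alone. Leaving out 1 library gave 0 to 4 higher and 0 to 17 lower. The genes whose groups did not overlap, 181 higher and 3127 lower, became 893 and 1060 with median-ratio scaling, 1432 and 1582 with that scaling and SPI 1 left out, 935 and 987 with upper-quartile scaling, and 333 higher with no filter, and leaving out 1 library gave 246 to 659 higher and 3477 to 4201 lower. With E2, the 1 gene called became 0 with no filter and 0 to 2 without 1 library. The interaction, with 0 genes called in either direction, gave 133 higher and 37 lower with array weights, and 0 to 84 higher and 0 to 7 lower without 1 library. No other alternative moved one of these counts by more than 1.5 times. The counts at an unadjusted p under 0.05 moved more: without E2, 143 genes higher and 2490 lower became 670 and 671 with median-ratio scaling, 542 and 644 with that scaling and SPI 1 left out, 652 and 602 with scaling and the block, 728 and 617 with upper-quartile scaling, 79 and 1230 in 1 fit over 12 libraries, and, for the genes higher, 263 with array weights, 223 with no filter and 99 to 275 without 1 library. With E2, 144 and 134 became 468 and 558 with array weights, 225 and 210 with no filter, 278 and 282 with the block, and 88 to 444 and 56 to 289 without 1 library. For the interaction, 1362 and 168 became 579 and 487 with median-ratio scaling, and the genes lower became 463 with array weights, 269 with no filter and 113 to 317 without 1 library. The cause of these changes was not tested.

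With the replicate number as a block, 0 genes were called higher and 0 lower without E2, also with median-ratio scaling, while the 1 gene with E2 and the 0 of the interaction did not change in number. Same-numbered CAS and SPI libraries had correlated deviations of -0.32, 0.04 and -0.08, and not every library correlated best with its own number. With only 3 libraries in a group to set the mean, these correlations cannot decide whether the numbers pair the pools.

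Differences of 15 named genes changed sign under at least 1 alternative. Cyp1a2 gave -0.19 with array weights, -0.57 with median-ratio scaling and SPI 1 left out, and -0.69 to 1.42 without 1 library. Fabp1 and Mt3 gave -1.13 and -0.067 with scaling and SPI 1 left out, and -1.29 to 1.35 and -0.30 to 0.32 without 1 library. Under median-ratio scaling, the same with SPI 1 left out and upper-quartile scaling, Bmp2 gave 0.066, 0.22 and 0.077, Ihh 0.11, 0.042 and 0.12, Nr3c1 0.087, 0.043 and 0.099, Nrip1 0.16, 0.23 and 0.17, and Prom1 0.012, 0.024 and 0.023, and the block with scaling gave the same values as scaling. Ihh gave 0.15 with array weights. Without 1 library, Bmp2 ran from -0.24 to 0.039, Ihh from -0.19 to 0.19, Nr3c1 from -0.26 to 0.039, Nrip1 from -0.13 to 0.062, Nqo1 from -0.093 to 0.11, Cd14 from -0.34 to 0.011, Cldn10 from -0.027 to 0.38, Plaur from -0.41 to 0.049 and Slc39a8 from -0.041 to 0.29. S100g ran from -0.20 to 0.88 and was below 0 without SPI 3, and Sult2a1 ran from -0.997 to 0.38 and was above 0 without SPI 2. Depth limits genes such as Mln, with 1 or 2 fragments in a CAS library.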
